A study of Mus musculus with 2 samples.

Results

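The nuclear-encoded subunits of the mitochondrial respiratory chain were compared between an E14 teratoma library and an E14-Sox2TA/WT teratoma library. Members were the protein-coding rows of the deposited gene expression table whose symbols carry the names of these subunits, that is, Nduf with the letters a, b, c, s or v, Sdh with a to d, Uqcr, Cyc1, Cox with the digits 4 to 8, and Atp5. This rule gave 92 of 45777 rows, of which 21949 were protein-coding. There were 38 members in complex I, 8 in complex II, 9 in complex III, 20 in complex IV and 17 in complex V. The rule used names alone and no measured value. It also took rows that are not structural subunits of a mature complex, namely the complex II assembly factors Sdhaf1, Sdhaf2, Sdhaf3 and Sdhaf4, the supercomplex factor Cox7a2l and the Ndufb4 paralogues Ndufb4b and Ndufb4c, which were kept and are named apart.

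E14 is a mouse embryonic stem cell (ESC) line of wild-type genotype. E14-Sox2TA/WT cells were made from E14 by CRISPR/Cas9 knock-in of the T258A substitution, which removes a threonine that can carry O-GlcNAc, in 1 allele of the pluripotency factor Sox2. The other allele remained wild type, and colonies were expanded from single cells. ESCs of either line were injected under the skin of BALB/c-nu mice, athymic animals that lack mature T cells but keep other host cells, and the teratomas were collected 14 days after inoculation. The age of the mice was not given in the sources used here, nor whether a library holds 1 tumour or several of the 3 mice inoculated per group. The comparison addresses how a tumour library of these mutant cells differs from one of E14 cells. The substitution cannot be told apart from the clone and its culture history. Because there was 1 library per group, no difference below has a replicate check, no p-value is given, and each ratio compares these libraries and not the genotypes.

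The respiratory chain is built from the products of both genomes of the cell. Complex I oxidises NADH, complex II oxidises succinate, complex III passes electrons from ubiquinol to cytochrome c, complex IV hands them to oxygen, and complex V, the ATP synthase, uses the proton gradient to make ATP. Complex II is made of nuclear-encoded proteins alone, whereas the other complexes combine nuclear-encoded subunits with a small set encoded in mitochondrial DNA, so that assembly needs a supply from both sources. Several complex IV subunits exist as a ubiquitous isoform and as isoforms known from heart and skeletal muscle, lung or testis, and pluripotent cells are known to rely more on glycolysis than many of the cells that arise from them.

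The files held 50529171 reads assigned to genes for the E14 teratoma and 49030281 for the E14-Sox2TA/WT teratoma. Levels are given as TPM, a length-normalised unit that sums to the same total in each library, and ratios are E14-Sox2TA/WT over E14. The interval after a ratio is the 95% Clopper-Pearson interval from the read counts of both libraries, and it covers counting error only. Sox2 itself was at 246 TPM in the E14 teratoma and 130 TPM in the E14-Sox2TA/WT teratoma, and a level cannot show the substitution. Markers of neurons, skeletal muscle and visceral endoderm or liver, which stand for derivatives of the germ layers of a teratoma, were detected in both libraries, the last at summed TPM of 4.62 and 255. Several features set the libraries as a whole apart. The E14-Sox2TA/WT teratoma had lower values for all 8 neuronal marker genes (summed TPM 2987 and 462) and higher values for all 7 pluripotency marker genes (76.3 and 1871). The 13 protein-coding genes of mitochondrial DNA took 4.99% and 9.22% of all TPM. Protein-coding genes on chromosome 8 had a median log2 ratio of −0.54 and those on chromosome 15 one of 0.33, against −0.10 over all nuclear protein-coding genes. In whole tumours, fewer cells of a type and less RNA per cell cannot be told apart, and reads of host and graft were not separated.

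As a set, the nuclear-encoded subunits were abundant and close to equal in the libraries. Their summed level was 26503 TPM in the E14 teratoma and 26371 TPM in the E14-Sox2TA/WT teratoma, 2.65% and 2.64% of all transcripts. All 92 members reached 1 TPM in at least 1 library, 89 reached 10 TPM, and 73 were above 100 TPM in both. The median log2 ratio of (TPM + 1) was 0.01 over the 92 members, with 48 above and 44 below a ratio of 1. The binomial interval of this median, which describes the spread among members and not replicate error, ran from −0.16 to 0.06. Over all 18558 rows with at least 1 TPM the median was −0.06.

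Members also lay closer together than other genes. The interquartile range of their log2 ratios was 0.53, compared with 1.23 over all rows, 1.19 over nuclear protein-coding genes and 0.82 over the 1441 nuclear protein-coding genes with a mean of at least 100 TPM. Over the 710 of these abundant genes with transcripts as long as the members', the range was 0.73. Of the 92 members, 74 were within 1.5-fold. By the rule that the study's methods state for differentially expressed genes (DEGs), a fold change above 2 with at least 10 TPM in 1 library, 3 of the 89 members that could pass were called, 2 higher and 1 lower, or 3.37%. Over all rows that could pass, the same rule called 29.5% (3420 of 11578), 10.8% as higher and 18.7% as lower. Among the nuclear protein-coding genes with a mean of at least 100 TPM it called 16.7% (5.76% as higher and 11% as lower). Among nuclear protein-coding genes with transcripts as long as the members' it called 26% (16.5% as higher and 9.45% as lower). Among the 710 that met both conditions it called 15.4% (7.18% as higher and 8.17% as lower). The members called were Cox7a1 and Cox7b2, with upregulated expression, and Ndufv3, with downregulated expression. Atp5md, at 1.99-fold higher, and Ndufb7, at 1.98-fold lower, stood just short of the threshold on TPM. On FPKM, on reads scaled by library total, TMM or median-of-ratios factors and on TPM over nuclear genes alone, Atp5md passed it, so that 3 members were called as higher on each of these scales. Counting error was small beside these differences: 36 members had an interval wholly above 1 and 42 wholly below, so most members differed between the libraries by more than counting error, in either direction. Over nuclear protein-coding genes the corresponding shares were 39.8% and 49.8%.

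**Figure D1:**
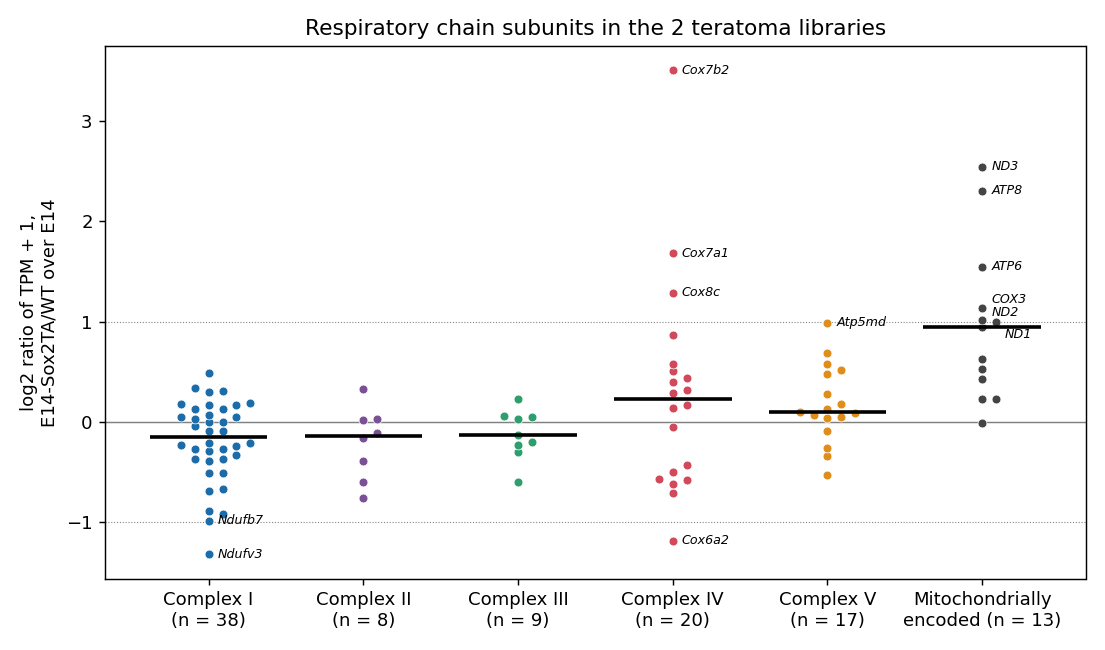
Each point is a gene, placed by its log2 ratio of (TPM + 1) in the E14-Sox2TA/WT over the E14 teratoma (1 library each), by complex, with the 13 mitochondrially encoded subunits at the right. Black bars are medians (−0.15, −0.14, −0.13, 0.23 and 0.10 for complexes I to V and 0.94 for the mitochondrially encoded genes), dotted lines mark 2-fold, and the names are those of members called or near the threshold and of low isoforms.

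**Figure D2:**
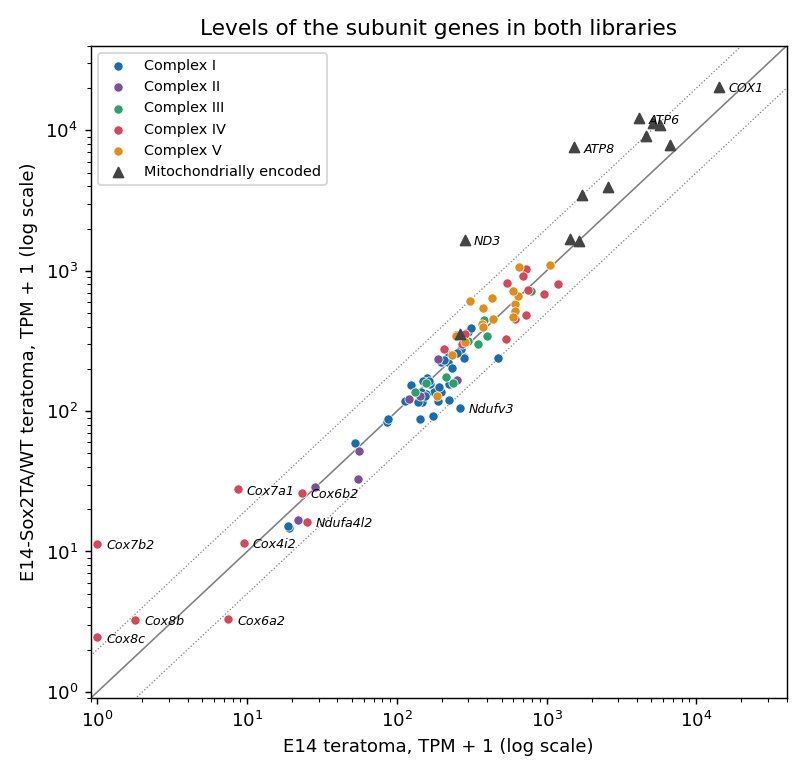
TPM + 1 in the E14 teratoma (x axis) against the E14-Sox2TA/WT teratoma (y axis), both on log scales, for the 92 nuclear-encoded subunits (circles, coloured by complex) and the 13 mitochondrially encoded subunits (triangles). The solid line marks equal levels and the dotted lines 2-fold, and the nuclear-encoded genes outside them are Ndufv3 and low-level tissue isoforms of complex IV, whereas ND3, ATP8, ATP6 and others of the mitochondrial genome lie above.

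Complex I, the largest group, had a median log2 ratio of −0.15, with 16 members above and 22 below a ratio of 1. Its summed level was 7112 and 6386 TPM. This median was close to the −0.10 of nuclear protein-coding genes, of which 8597 of 15681 were below 1. Those with a mean of at least 100 TPM had a median of −0.003. The sign of the complex I median depended on the scale: with FPKM in place of TPM it was 0.05, and that of nuclear protein-coding genes was 0.07. The core subunits, which carry the flavin and iron-sulphur centres and are conserved from bacteria, lay below 1 in 6 of 7 cases, with a median of −0.27. Ndufs8, an iron-sulphur subunit, was at 191 and 146 TPM. Ndufv2, a core subunit of the NADH-oxidising end, was at 162 TPM in both libraries. The 29 accessory subunits, which surround the core and stabilise it, were spread on either side of 1, with a median of 0.00.

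By module, the 10 members of the N module, where NADH is oxidised, had a median of 0.04, the 5 members of the Q module, where ubiquinone is reduced, −0.27, and the 21 members of the membrane-embedded P module, which pumps protons, −0.21. Ndufb7 was the most abundant complex I member in the E14 teratoma at 472 TPM and was at 239 TPM in the E14-Sox2TA/WT teratoma, a ratio of 0.505 (0.484 to 0.527). Its neighbour in the membrane arm Ndufb10 was at 222 and 119 TPM, a ratio of 0.537 (0.509 to 0.567). Ndufa13, also named GRIM-19, was at 173 and 91.1 TPM. These P module members were lower, but others of the module were not: Ndufb9 was at 247 and 347 TPM, the highest ratio in complex I at 1.41 (1.35 to 1.46). Ndufa7, the most abundant complex I member in the E14-Sox2TA/WT teratoma, was at 311 and 393 TPM, and Ndufa6, which lies at the junction of the arms, at 296 and 367 TPM. The paralogue rows were low, Ndufb4b at 18.0 and 13.7 TPM and Ndufb4c at 17.6 and 14.3 TPM, and since they resemble Ndufb4 (217 and 222 TPM), reads may be shared among the 3.

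Ndufv3, an accessory subunit of the NADH-oxidising module, was the 1 member called as lower. It was at 262 TPM in the E14 teratoma and 104 TPM in the E14-Sox2TA/WT teratoma, 2.51-fold lower (2.39 to 2.64). It had 4541 and 2419 reads, a ratio of 0.549 per library total, and at equal transcript length the TPM ratio is 0.869 times that ratio for any gene. The length that reads and FPKM imply for its transcripts was 720 nt in the E14 teratoma and 862 nt in the E14-Sox2TA/WT teratoma, and a longer transcript gives a lower TPM at the same number of reads, so that part of the gap between both ratios goes with length and part with the factor common to all genes. This was 1 of 3 members whose implied length differed by over 5%, with Ndufa10 and Sdhaf3. In the GENCODE annotation, Ndufv3 has a long transcript of 1582 nt with 4 exons (Ndufv3-201) and a short one of 493 nt with 3 exons (Ndufv3-202). They differ by exon 3, a coding exon of 1092 nt at chr17:31527310-31528401 (GRCm38, plus strand). If these 2 were the only transcripts, the implied lengths would correspond to a long form of 20.9% and 33.9% of molecules. The junctions that set them apart were as follows, with the first bases of exon 3 in capitals.

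Ndufv3-201, exon 2 to exon 3: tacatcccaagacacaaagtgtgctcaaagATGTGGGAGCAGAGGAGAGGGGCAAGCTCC
Ndufv3-202, exon 2 to exon 4: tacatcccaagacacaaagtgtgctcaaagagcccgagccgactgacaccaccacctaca

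The deposited table holds 1 value per gene, so the use of either junction was not measured, and on read counts scaled by library total, by TMM or by median-of-ratios factors Ndufv3 did not pass the 2-fold threshold.

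In complex II, the members differed in direction. Sdhb, the iron-sulphur subunit, was at 251 and 165 TPM, 1.52-fold lower (1.46 to 1.58). Sdha, the flavoprotein that oxidises succinate, was at 119 and 121 TPM. Of the membrane anchors, Sdhd was at 186 and 233 TPM and Sdhc at 142 and 127 TPM. None of the 8 members was called. The median was −0.14 over all of them and −0.06 over the 4 structural subunits, but 0.06 over all with FPKM, so its direction depended on the scale. The assembly factor Sdhaf1, which serves the insertion of iron-sulphur clusters into Sdhb, was at 54.4 and 31.7 TPM, 1.72-fold lower (1.57 to 1.88). Sdhaf2, which serves the attachment of flavin to Sdha, was at 27.4 and 27.7 TPM. Sdhb and Sdhaf1 were lower by more than counting error, as were 49.8% of nuclear protein-coding genes. Sdha and Sdhaf2 were near a ratio of 1. A link within either pair was not tested.

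Complex III varied least, with an interquartile range of 0.28 and no member called. Uqcrh, the hinge protein that contacts cytochrome c1, was the most abundant at 788 and 719 TPM. Uqcr10, a small accessory subunit, had the highest ratio, with 379 and 444 TPM, 1.17 (1.12 to 1.22). Uqcrfs1, the Rieske iron-sulphur protein added at the last step of assembly, had the lowest ratio at 238 and 157 TPM, 1.51-fold lower (1.46 to 1.57). The other catalytic subunit encoded in the nucleus, Cyc1 (cytochrome c1), was at 347 and 301 TPM. The core proteins Uqcrc1 and Uqcrc2 were at 154 and 158 TPM and at 213 and 173 TPM. The median of −0.13 turned to 0.07 with FPKM, so no direction can be given for the complex.

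Complex IV was divided. Among its 11 ubiquitous subunits, 6 had an interval wholly above 1 and 5 wholly below, and none was called. The higher ones were Ndufa4, now counted to complex IV, at 546 and 818 TPM, Cox6c at 727 and 1036 TPM, Cox7b at 206 and 278 TPM, Cox7c at 694 and 917 TPM, Cox5a at 283 and 353 TPM and Cox7a2 at 270 and 298 TPM. The lower ones were Cox6a1 at 728 and 486 TPM, Cox4i1 at 1198 and 808 TPM, Cox8a at 958 and 678 TPM, Cox5b at 609 and 452 TPM and Cox6b1 at 755 and 731 TPM. Ndufa4 thus had a ratio of 1.498 (1.45 to 1.54) and Cox6a1 a ratio of 0.667 (0.648 to 0.688) within a complex that holds its subunits in fixed proportion. Cox4i1, an early subunit of assembly, was the most abundant member of the complex in the E14 teratoma, and Cox6c was the most abundant in the E14-Sox2TA/WT teratoma. Their summed level was 6974 and 6857 TPM. Cox7a2l, a factor that joins complexes III and IV into supercomplexes, was at 530 and 324 TPM, 1.64-fold lower (1.60 to 1.68).

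The tissue isoforms of complex IV were rare, and they held both members called as higher. Cox7b2, the testis isoform of subunit 7b, had 0 reads in the E14 teratoma and 152 reads (10.4 TPM) in the E14-Sox2TA/WT teratoma. Against the 3 counts that a count of 0 allows, this was at least 45.4-fold higher, and the counting interval of the ratio began at 36.5. Its share of the TPM of subunit 7b was 0% in the E14 teratoma, with an upper limit of 0.111%, and 3.59% (3.05 to 4.19) in the E14-Sox2TA/WT teratoma. Cox7a1, the heart and skeletal muscle isoform of subunit 7a, was at 7.62 TPM (68 reads) and 26.7 TPM (263 reads), a ratio of 3.50 (2.67 to 4.64). Its share of subunit 7a was 2.75% and 8.22%. For both genes the ubiquitous partner made up over 90% of the TPM of the pair in either library, Cox7a2 97.3% and 91.8% and Cox7b 100% and 96.4%.

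The other tissue isoforms lay on either side of 1. Cox8c, a testis isoform, had 0 and 19 reads, at least 5.67-fold higher against the same 3 counts, with a counting interval from 4.18, but at 1.44 TPM too low to be called. Cox8b, a muscle isoform, had 7 and 23 reads, a ratio of 2.85 (1.19 to 7.87). Cox6a2, a muscle isoform as well, went the other way with 103 and 41 reads (6.47 and 2.29 TPM), 2.83-fold lower (1.95 to 4.16). Cox4i2, known from lung, was at 8.49 and 10.6 TPM, and Cox6b2, known from testis, at 22.2 and 25.1 TPM with an interval that included 1 (0.970 to 1.33). Ndufa4l2, a paralogue of Ndufa4 that is known to respond to low oxygen, was at 24.1 and 15.4 TPM, so that its share of the pair was 4.23% and 1.84%. The muscle isoforms therefore did not share a direction, nor did the pair of Ndufa4 genes.

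Markers of cells known for these isoforms differed from set to set in direction and size. Of 11 skeletal muscle markers, 10 had ratios below 1 and 6 of 10 that could be called were called as lower (18.7% of all rows), with summed TPM of 447 and 232. Of the skeletal muscle isoforms, Cox6a2 had the direction of these markers, and Cox7a1 and Cox8b had the opposite one. For cardiac muscle, 3 of 8 markers were higher and 5 lower, with summed TPM of 124 and 63.2. The germ cell markers with at least 1 TPM were higher in 5 of 5 cases, with summed TPM of 6.52 and 93.5 over all 6, and Dazl at 3.12 and 53.6 TPM. The testis isoforms Cox7b2 and Cox8c and the testis cytochrome c gene Cyct, at 10 and 267 reads, had the same direction. Cox6b2, also known from testis and more abundant than Cox7b2 and Cox8c, had a ratio of 1.13 with an interval that included 1 (0.970 to 1.33). Of the fat markers, Fabp4 was at 26.5 and 71.5 TPM and Adipoq had 0 and 83 reads, whereas Ucp1, which defines brown fat, had 29 and 13 reads and Elovl3 had none. Of 8 pericyte and smooth muscle markers, cells in which Ndufa4l2 is known to be expressed, 6 had ratios above 1 and 2 below, with summed TPM of 120 and 134. The part of these cell types in the isoform levels was not tested.

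**Figure D3:**
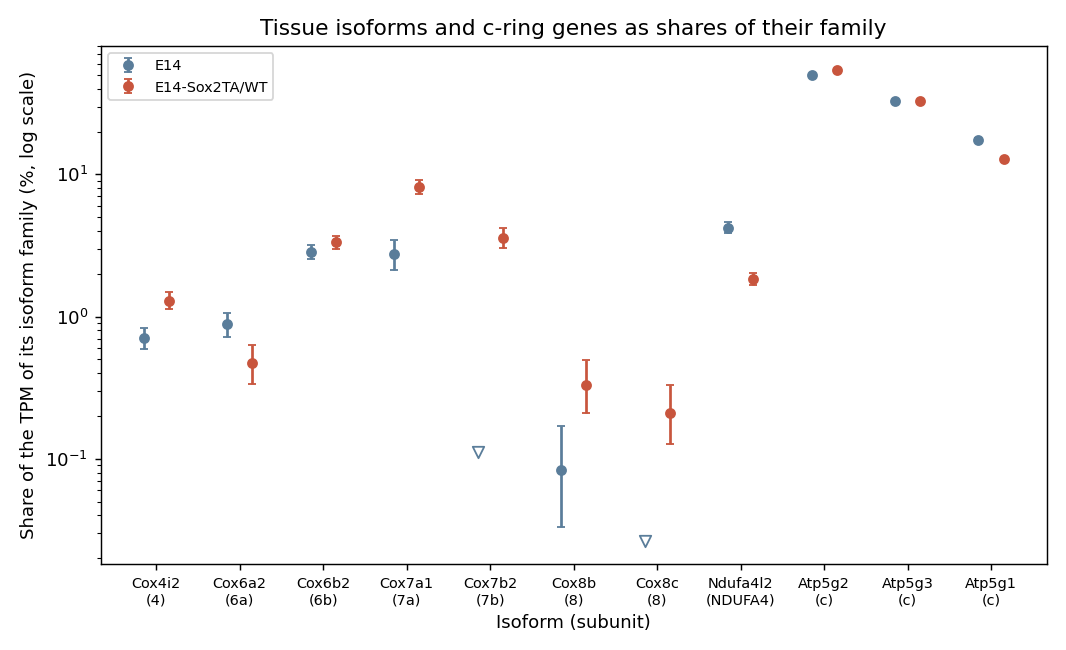
Share of each tissue isoform of complex IV and of each c-ring gene in the summed TPM of its family, in percent on a log axis, for the E14 (blue) and E14-Sox2TA/WT (red) teratoma libraries. Bars are 95% Clopper-Pearson intervals (counting error only), open triangles are upper limits where a gene had 0 reads, and Cox4i2, Cox7a1, Cox7b2, Cox8b and Cox8c have higher shares and Cox6a2 and Ndufa4l2 lower shares in the E14-Sox2TA/WT teratoma.

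Complex V was the complex with the highest share of members above 1, 13 of 17, with a median of 0.10 and a summed level of 8012 and 9196 TPM. The catalytic F1 part was near equal. Atp5b, the catalytic beta subunit, was the most abundant member at 1053 and 1107 TPM, and Atp5a1, the alpha subunit, was at 613 and 576 TPM. Atp5d, the delta subunit of the central stalk, was the exception at 186 and 128 TPM, 1.45-fold lower by TPM. The peripheral stalk, which holds F1 against rotation, was divided, with Atp5pb at 247 and 343 TPM and Atp5o at 593 and 469 TPM.

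In the membrane part of complex V, all c-ring and accessory subunits had ratios above 1. The 3 genes for the c-ring, the proton-driven rotor, had a median log2 ratio of 0.58. They encode the same mature subunit c with different targeting sequences, so their levels can be added, to 1316 and 1948 TPM. Atp5g2 was at 655 and 1056 TPM, a ratio of 1.61 (1.57 to 1.65), and Atp5g3 at 430 and 644 TPM, a ratio of 1.497 (1.45 to 1.54). Atp5g1, the form known to vary with metabolic demand, was at 231 and 249 TPM, a ratio of 1.08 (1.03 to 1.12), and its share of the c-ring transcripts was 17.6% and 12.8%. The 5 membrane accessory subunits all had ratios above 1, with a median of 0.28, though the interval of Atp5j2 included 1 (0.993 to 1.06). Atp5md, also known as DAPIT and needed for ATP synthase dimers, was at 306 and 609 TPM, a ratio of 1.99 (1.90 to 2.08), the largest difference in the complex. Atp5mpl, a small proteolipid beside it, was at 376 and 539 TPM, and Atp5l, subunit g, at 596 and 722 TPM. Atp5k and Atp5j2, subunits e and f, were at 376 and 399 TPM and at 642 and 658 TPM. On all 5 other scales tried, the median of complex V stayed above 0. With a fitted trend on transcript length and GC content removed, however, it was −0.35, and that of complex IV, 0.23 on TPM, was −0.53. Nuclear protein-coding genes had a median of −0.12 with this trend removed. By implied length, transcripts of the membrane accessory subunits had 320 to 513 nt and those of the c-ring genes 650 to 799 nt. Other protein-coding genes had medians of 0.35 below 600 nt and 0.29 from 600 to 800 nt. Protein-coding genes as long as the members and with a mean of at least 100 TPM had 0.04. The part of length in the ratios of the membrane part was not tested.

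The start regions of these genes were examined for the motifs of factors known to control respiratory genes. RefSeq windows from 250 bases before to 50 after the start (GRCm38.p6) were found for 74 of the 92 members. A gene was counted as holding a motif if any of its windows did. On either strand, the NRF1 motif (GCGCA, any base, then GCGC) was found for 19 members (25.7%). The shares were 5.19% of all 27025 genes with a window and 16.0% of protein-coding genes with a mean of at least 100 TPM. The ETS motif CCGGAAG, bound by GABP, was found for 20 members (27.03%), compared with 9.93% of all genes with a window and 25.7% of the abundant genes. The YY1 motif (AAGATGG followed by CGG) was in 6.76%, 0.995% and 3.24%, and the Sp1 motif GGGCGG in 44.6%, 38.2% and 72.1%. Members with and without the NRF1 motif had median log2 ratios of 0.03 and −0.05, and those with and without the ETS motif −0.11 and 0.03. A match is a description of the letters and not a bound site.

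The 250 bases before the start are shown for a member that holds 3 of the motifs, for the c-ring genes, which share a product, and for the isoforms called as higher. Capitals mark the motifs.

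Cox6a1, chr5:115348959-115349208, minus strand: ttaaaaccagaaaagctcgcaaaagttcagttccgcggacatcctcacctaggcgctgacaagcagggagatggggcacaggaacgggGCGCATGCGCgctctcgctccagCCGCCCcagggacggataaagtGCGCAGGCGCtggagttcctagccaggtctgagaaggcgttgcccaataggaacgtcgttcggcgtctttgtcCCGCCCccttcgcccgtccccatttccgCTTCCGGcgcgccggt
Atp5g1, chr11:96075632-96075881, minus strand: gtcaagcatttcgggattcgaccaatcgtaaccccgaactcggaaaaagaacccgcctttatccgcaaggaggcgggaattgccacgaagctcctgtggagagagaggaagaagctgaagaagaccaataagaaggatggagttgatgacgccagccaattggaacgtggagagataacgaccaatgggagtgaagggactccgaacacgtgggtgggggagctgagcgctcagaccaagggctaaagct
Atp5g2, chr15:102671048-102671297, minus strand: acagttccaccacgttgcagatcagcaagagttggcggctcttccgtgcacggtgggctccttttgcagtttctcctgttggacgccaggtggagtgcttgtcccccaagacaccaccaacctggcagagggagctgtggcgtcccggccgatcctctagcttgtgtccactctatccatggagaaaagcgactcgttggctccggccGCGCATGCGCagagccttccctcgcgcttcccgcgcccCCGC
Atp5g3, chr2:73911327-73911576, minus strand: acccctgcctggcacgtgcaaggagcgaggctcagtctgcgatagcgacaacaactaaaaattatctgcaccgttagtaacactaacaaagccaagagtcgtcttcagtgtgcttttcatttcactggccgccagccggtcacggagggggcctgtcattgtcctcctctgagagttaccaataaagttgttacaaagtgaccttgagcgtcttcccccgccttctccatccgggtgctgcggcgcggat
Cox7a1, chr7:30183921-30184170, plus strand: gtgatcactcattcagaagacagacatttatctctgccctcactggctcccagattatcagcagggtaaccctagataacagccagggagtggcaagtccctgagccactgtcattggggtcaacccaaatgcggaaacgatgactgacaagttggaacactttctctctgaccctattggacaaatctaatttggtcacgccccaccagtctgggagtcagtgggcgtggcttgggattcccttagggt
Cox7b2, chr5:71548206-71548455, minus strand: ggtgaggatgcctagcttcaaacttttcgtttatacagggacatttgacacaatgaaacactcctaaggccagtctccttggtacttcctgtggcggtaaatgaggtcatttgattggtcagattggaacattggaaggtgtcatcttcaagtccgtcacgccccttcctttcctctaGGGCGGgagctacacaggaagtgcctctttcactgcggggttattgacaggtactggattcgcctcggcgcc

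Cox6a1 carries NRF1, ETS and Sp1 motifs. Among the c-ring genes, Atp5g2 carries the NRF1 motif and, at the end of the printed stretch, the first bases of an Sp1 motif that runs past the start, Atp5g3 has an NRF1 motif within the 50 bases after the start, which are not printed, and Atp5g1 has none of the 4 motifs. Cox7a1 has none of them, and Cox7b2 has an Sp1 motif.

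The mitochondrially encoded subunits of the same complexes differed from their nuclear-encoded partners. Their median log2 ratio was 0.94, against 0.01 for the nuclear-encoded subunits, a difference of −0.93 for nuclear minus mitochondrially encoded. Of the 13 genes, 12 were above a ratio of 1 and 6 were called as higher, 46.2%, where the rule called 10.8% of all rows as higher. Among those called, ND1 and ND2 stood at the threshold, with ratios of 2.001 (1.987 to 2.016) and 2.023 (1.9997 to 2.046), so that both intervals reached below 2. Only 1 nuclear-encoded member, Cox7b2, had a log2 ratio above the highest of the 13. The genes of mitochondrial DNA are transcribed as long polycistronic units and cut into single messengers, yet their ratios ranged widely. Shorter genes tended to have higher ratios, with Spearman's rho of −0.47 between length and log2 ratio over the 13. The part of length in this range was not tested. ND3 was at 283 and 1656 TPM, a ratio of 5.86 (5.61 to 6.12), ATP8 at 1533 and 7576 TPM and ATP6 at 4169 and 12182 TPM. At the other end, ND5 was at 1642 and 1634 TPM, a ratio of 0.995 (0.985 to 1.01), CYTB at 6677 and 7835 TPM and ND4L at 1439 and 1683 TPM. Between them were COX3 (5123 and 11251 TPM), ND2 (1725 and 3490), ND1 (4588 and 9184), COX2 (5689 and 10946), ND4 (2559 and 3957), COX1 (14218 and 20484) and ND6 (263 and 355), the last of which is read from the opposite strand. ATP8 and ATP6 overlap by 43 nt, and ATP6 and COX3, ND4L and ND4, and ND5 and ND6 by 1, 7 and 14 nt, so reads there can be assigned to either gene.

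Set against each other by complex, the summed TPM of mitochondrially encoded per nuclear-encoded subunits was 1.88 in the E14 teratoma and 3.50 in the E14-Sox2TA/WT teratoma. For complex I it was 1.76 and 3.44, for complex IV 3.30 and 5.87, and for complex V 0.71 and 2.15. For complex III, which has CYTB as its single mitochondrially encoded subunit, it was 2.26 and 2.86. The nuclear-encoded sum was lower in complexes I, III and IV, with ratios of 0.898, 0.930 and 0.960, and higher in complex V at 1.15, whereas the mitochondrially encoded sum was higher in each. Because TPM sums to a fixed total, a larger mitochondrial share lowers all nuclear values. With TPM rescaled over nuclear genes alone, the median of the nuclear-encoded subunits was 0.08, and it remained far below that of the mitochondrially encoded genes. Mitochondrial ribosomal RNA reads moved in the same direction, from 15904 to 34060. The part of tissue composition in this difference was not tested.

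**Figure D4:**
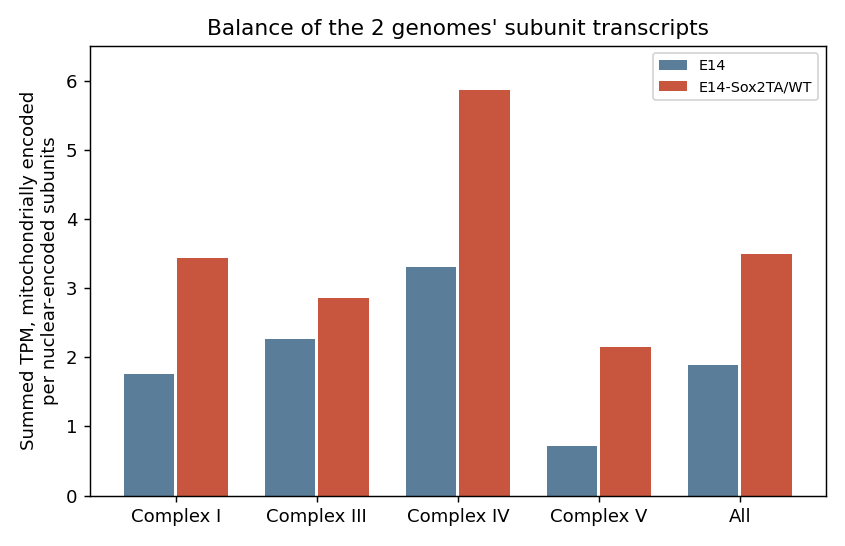
Summed TPM of mitochondrially encoded subunits divided by that of the nuclear-encoded subunits of the same complex, for the E14 (blue) and E14-Sox2TA/WT (red) teratoma libraries. Complex II has no mitochondrially encoded subunit and enters only the bars for all complexes, where the quotient is 1.88 and 3.50, and the red bar is the higher one in every complex shown.

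The assembly factors of the respiratory chain gave few calls. Of 42 that could be called, 2 were (4.76%, against 29.5% of all rows): Sco2, a copper chaperone of complex IV, at 5.06 and 12.2 TPM, and Bcs1l, which inserts the Rieske protein into complex III, at 24.3 and 9.75 TPM, 2.50-fold lower (2.23 to 2.79). Bcs1l and its substrate Uqcrfs1 were both lower by more than counting error, as were 49.8% of nuclear protein-coding genes. A link between them was not tested. The most abundant assembly factors in the E14 teratoma were Uqcc2 at 218 and 201 TPM and Coa3 at 138 and 119 TPM. Of 16 tricarboxylic acid cycle genes, which feed electrons to the chain, 12 had ratios below 1, with a median of −0.20 and 12.5% called. Pdha1, which brings pyruvate into the cycle, was called as lower at 305 and 138 TPM, and Suclg2 was called as higher at 33.8 and 70.1 TPM. Mdh2, the most abundant, was at 446 and 454 TPM.

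Among 9 electron and nucleotide carriers, 1 was called (11.1%), Cyct, at 0.50 and 15.1 TPM, a ratio of 30.4 (16.3 to 64.2). Its somatic counterpart Cycs was at 51.4 and 92.9 TPM. The ADP/ATP carriers Slc25a4 and Slc25a5 were the most abundant of the group at 724 and 535 TPM and at 529 and 528 TPM. Of 17 glycolysis genes, 4 were called as lower (23.5%, near the 18.7% of all rows) and none as higher, with a median of −0.19. The 4 were Aldoc, Pfkm, Hk1 and Eno2, and Aldoc, known from brain, had the largest difference at 147 and 24.3 TPM. The abundant Gapdh was at 1704 and 1497 TPM and Ldha at 1130 and 1237 TPM. Of 10 genes of the response to low oxygen, 8 could be called and 2 were, 25% and thus near the share of all rows. Ndrg1 was called as higher, at 13.7 and 33.7 TPM, and Vegfa as lower, at 103 and 47.1 TPM. The glucose transporter Slc2a1 was at 192 and 228 TPM and Bnip3 at 146 and 109 TPM.

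Most regulators of mitochondrial biogenesis differed little, and none was called. Nrf1 was at 32.4 and 34.8 TPM, Yy1 at 37.8 and 35.9 TPM and Gabpa at 32.0 and 33.1 TPM. Esrra, a nuclear receptor for oxidative genes, was at 12.5 and 21.6 TPM. The coactivator Ppargc1a (PGC-1α) was at 5.10 and 0.99 TPM (794 and 269 reads), 5.17-fold lower (4.49 to 5.95) by TPM but 2.86-fold lower by reads per library total, with an implied length of 6470 and 10142 nt, and it was below the 10 TPM needed for a call. Of 9 genes for mitochondrial DNA transcription and replication, 8 had ratios above 1 and none was called. Ssbp1 was at 93.1 and 108 TPM, Tfam, which packages mitochondrial DNA, at 31.7 and 39.3 TPM, and Tfb1m at 12.5 and 18.9 TPM. The 1 gene below a ratio of 1 was Polrmt, at 17.5 and 12.1 TPM, a ratio of 0.690 (0.640 to 0.744). None of 17 genes for mitochondrial RNA handling was called, with 10 ratios above 1 and 7 below. Lrpprc was among the lower ones, at 41.5 and 36.0 TPM, a ratio of 0.868 (0.833 to 0.904). Hsd17b10, a subunit of mitochondrial RNase P that cuts transfer RNAs out of the polycistronic transcripts, had the largest difference at 218 and 113 TPM, and Slirp, which stabilises mitochondrial messengers, was at 160 and 207 TPM.

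Other large protein complexes served for comparison. The 78 mitochondrial ribosomal protein genes had a median of −0.03, an interquartile range of 0.57 and 5.13% called, the 38 proteasome subunits with at least 1 TPM 0.02, 0.32 and 5.41%, and the 82 cytosolic ribosomal protein genes 0.19, 0.28 and 4.94%. The nuclear-encoded respiratory subunits, at 0.01, 0.53 and 3.37%, lay within the range of these medians, and their spread was close to that of the mitochondrial ribosomal proteins and wider than in the other two.

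Position in the genome went with some of the differences. All 3 members on chromosome 8 had ratios below 1, with log2 ratios of −0.57 for Cox4i1, −0.98 for Ndufb7 and −0.92 for Ndufa13, where the other protein-coding genes of that chromosome had a median of −0.54. Of the 6 members on chromosome 15, Cox6c, Ndufb9, Ndufa6 and Atp5g2 were higher, with log2 ratios of 0.51, 0.49, 0.31 and 0.69, and Cyc1 and Ndufb4c were lower, with −0.20 and −0.29, where the others had a median of 0.33. These members include the most abundant genes of complexes I and IV in the E14 teratoma and the most abundant c-ring gene. Without both chromosomes, the median over the remaining 83 members was 0.02, and the calls were the same 3. The part of the chromosomes in these ratios was not tested.

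Transcript length also went with the ratios. The median length implied by reads and FPKM was 718 nt over the members and 2948 nt over nuclear protein-coding genes. Shorter transcripts had higher ratios: Spearman's rho between length and log2 ratio was −0.33 over 91 members and −0.28 over 15667 nuclear protein-coding genes, as a description over genes of the same 2 libraries. Below 2000 nt, members had lower medians than other genes of the same length, and from 2000 to 4000 nt the order turned, with 0.02 over 5 members and −0.09 over 6182 genes. Below 600 nt, the median of 33 members was 0.13 and that of 250 other genes 0.35. From 600 to 800 nt the values were 0.05 over 22 members and 0.29 over 338 genes, and from 800 to 1200 nt −0.27 over 15 members and 0.24 over 1045 genes. Abundance went with this difference as well: nuclear protein-coding genes of like length with a mean of at least 100 TPM had a median of 0.04, close to the 0.01 of the members.

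**Figure D5:**
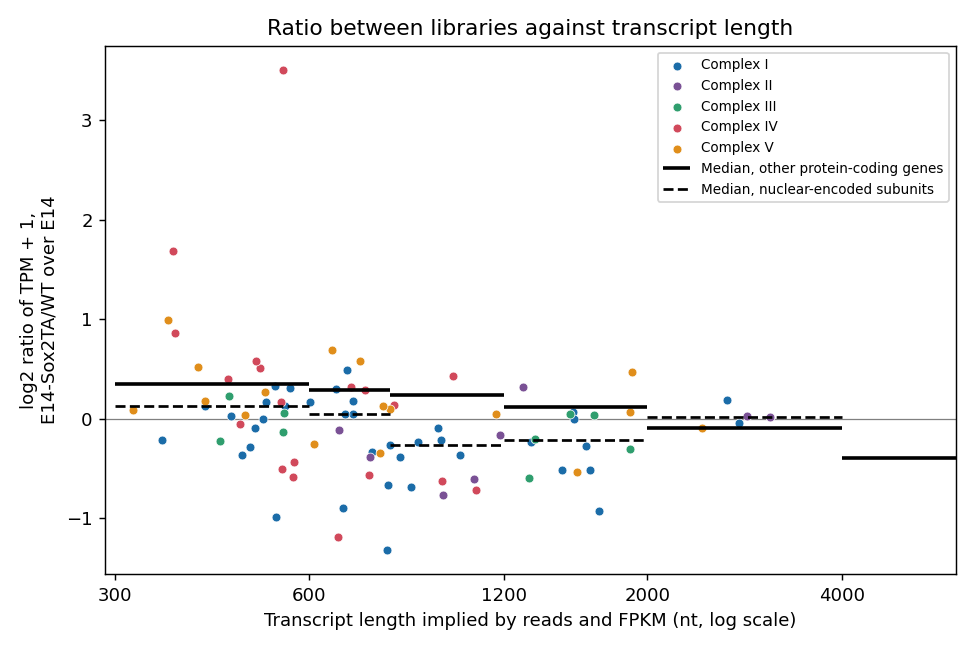
Log2 ratio of (TPM + 1) against the transcript length implied by reads and FPKM (nt, log axis) for the 91 nuclear-encoded subunits with a length, coloured by complex. Solid bars are medians of other nuclear protein-coding genes in length bins, which decline from 0.35 below 600 nt to −0.40 from 4000 nt, and dashed bars are medians of the members, which lie below the solid bars in the first 4 bins.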

How the data were processed

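RNA-seq of polyA RNA (Illumina NovaSeq) was analysed in 1 E14 and 1 E14-Sox2TA/WT teratoma library. The authors deposited 1 gene table with read counts, FPKM and TPM. The submitters' processing notes name bcl2fastq 2.20.0, Trimmomatic, HISAT2 2.1.0 and StringTie 2.1.3b and the mm10 build, with hg19 also listed; the strand setting and the handling of reads that match several genes were not given in the sources used here, so values of paralogues and overlapping genes are uncertain. The labels describe the tissue as teratoma, while their extraction text speaks of an embryonic stem cell line.

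Deposited TPM was the main scale, since the study's fold rule uses it. Log2 ratios were taken of TPM with 1 added, which understates differences of low genes, and medians were taken over rows with at least 1 TPM in at least 1 library. Transcript length was taken as reads over FPKM, calibrated on the 13 mitochondrial genes. Like length means the 10th to 90th percentile of the members' lengths, 449 to 1656 nt. With 1 library per group no test was made. Ratio and share intervals (95%, Clopper-Pearson) and the floor of 3 counts cover counting error only, and reads without molecular identifiers are not independent molecules. The scripts (Python 3.11.15, pandas 2.3.3, scipy 1.17.1, R 4.3.3 with edgeR 4.0.16 for TMM factors only) were tested on simulated counts with known changes. No column of an unmapped sample was present.

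Members and lists were chosen with earlier results of these data known. Named genes were, by complex, the 3 most abundant and the 2 that differed most, members called, isoforms, all mitochondrially encoded genes and, in other lists, the 2 highest and the largest change; further members were named after their values were seen, to describe each complex. Names, positions and promoter windows came from RefSeq (GRCm38.p6, all 92 members matched by gene ID) and Ndufv3 exons from GENCODE M21.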

Additional observations from a re-analysis of the deposited data

Results flagged for a closer look

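Rows that carry subunit names but are not annotated as protein-coding were outside the comparison, and 2 of them had signal above the level in the E14 teratoma, with intervals wholly above 1. Another, Ndufs5-ps, was lower, with 1734 and 1626 reads and a ratio of 0.840 (0.784 to 0.899). The pseudogene Atp5l2-ps was at 8.53 TPM (93 reads) in the E14 teratoma and 26.01 TPM (316 reads) in the E14-Sox2TA/WT teratoma, a ratio of 3.05 (2.41 to 3.89). Its parent gene Atp5l had a ratio of 1.21, with 7362 and 9954 reads, and reads may be shared between them. Ndufb1-ps, annotated as a long non-coding RNA, was at 147 and 201 TPM (1813 and 2768 reads), a ratio of 1.37 (1.29 to 1.45), a level within the range of the complex I subunits.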

How the results depend on the processing

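No paired analysis was possible because each group had 1 library, and for the same reason no library could be left out. The main results were recomputed 107 times under other settings, and 25 of these values moved beyond the limits set for no change. Among single genes, 196 of 630 values stayed within the counting interval on TPM and 434 moved. These moves include a factor common to all genes, as ratios of TPM were 0.871 times those of FPKM at equal length. How many moved by such a factor alone was not counted. Higher calls were 4 with a fold change above 1.5, with at least 1 TPM and without a TPM filter. They were 3 on each of the 5 other scales, with Atp5md added. Lower calls were 0 with reads scaled by library total, TMM or median-of-ratios factors and with a fold change above 3. They were 11 with a fold change above 1.5, and 2 with at least 1 TPM and without a filter. The share called in either direction was smaller for members than for all rows in each setting. With a fold change above 1.5 it was 16.9% of 89 members and 50.5% of 11578 rows. Above 3 it was 2.25% and 14.5%. With at least 1 TPM it was 6.52% of 92 members and 38.2% of 18558 rows, and without a filter 6.52% and 33.1%. On the 5 other scales it was 3.37% to 4.49% of members and 27.7% to 28.7% of rows. The median of all nuclear-encoded subunits was 0.20 with FPKM, 0.21 with reads per library total, 0.082 with TMM, 0.088 with median-of-ratios factors and 0.078 with TPM over nuclear genes. With FPKM and reads per library total, complex I was at 0.046 and 0.050, complex II at 0.060 and 0.11 and complex III at 0.066 and 0.070, above 0 where TPM put them below. A fitted quadratic trend on transcript length and GC content, known for 89 members, gave −0.67 over all, −0.74, −0.70, −0.71, −0.53 and −0.35 for complexes I to V. Nuclear protein-coding genes had a median of −0.12 with the same trend removed. Bin medians in its place, chosen after seeing the data, gave −0.30 over all members and −0.11 over members with a mean of at least 100 TPM. Nuclear protein-coding genes had −0.11 and −0.003 in these 2 settings. The size of this correction thus depends on the method. The difference from the mitochondrially encoded genes was also taken on the other scales after seeing the data. The planned comparison of isoform proteins was not run.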
